A study of Mus musculus with 9 samples.

Results

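The carboxylesterase genes described here are 4 members of the Ces1 subfamily (Ces1d, Ces1e, Ces1f and Ces1g) and 6 of the Ces2 subfamily (Ces2a, Ces2b, Ces2c, Ces2e, Ces2f and Ces2g). They were taken by symbol, through the Entrez Gene number of each probe set, from 24570 genes with a named probe set. The family was chosen by its fold changes on these same arrays, above all the low Ces2a levels under knockdown, so the members' levels and folds against control are given as a description, without p-values. All 10 members had a probe set, and 9 passed the level filter, a mean log2 level of at least 5.29 over the 9 arrays. Ces2f did not. The probe set of Ces2c was named through its gene number in a RefSeq gene table, because the platform's own probe table did not list it.

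Expression was measured on arrays in the large intestine of C57BL/6 animals carrying rtTA, the activator that doxycycline switches on, together with an inducible short hairpin RNA. The hairpin was FLuc.1309, against firefly luciferase, in the control group, and DHX9.1271 or DHX9.837, both against the helicase gene Dhx9, in the groups DHX9-1271 and DHX9-837. Each group held 3 arrays. All mice, controls included, drank doxycycline at 1 mg/ml with 5% sucrose for 14 days from 4 weeks of age. Which promoter drives rtTA is not stated in the labels. Nor is it stated whether a group's replicates were different animals, and the spread behind the p-values may be technical.

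Carboxylesterases are serine hydrolases that sit mainly in the lumen of the endoplasmic reticulum and cut ester and amide bonds. They activate or inactivate ester drugs, and they also hydrolyse the body's own lipid esters, such as triacylglycerol, diacylglycerol and cholesteryl esters. The Ces2 enzymes are the carboxylesterases best known from the gut epithelium, whereas the Ces1 enzymes are best known from liver and adipose tissue, with some members also present in the gut. In the mouse both subfamilies lie on chromosome 8, in separate clusters of closely related neighbours. Near-identical stretches of such genes can share probes. The definition of the probe sets is not given in the sources used here, so single values of these genes are uncertain to that extent.

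The upstream windows of 4 Ces2 genes are shown because Ces2a, Ces2e and Ces2g were called lower in the knockdown arrays and Ces2c was not, although the Ces2a and Ces2c windows are the most alike. Each is the 250 bases before the annotated transcript start in RefSeq on build GRCm38.p6, read 5′ to 3′ on the gene's strand, with the letters ACTTTG in capitals. They are the reverse complement of part of the known binding sequence of HNF4A, a nuclear receptor of intestinal epithelium. Read by eye, the letters in Ces2g lie in a different stretch of the window from those in Ces2a and Ces2e. The windows and letters were chosen with these calls known, and a link between match and call was not tested. Ces2f, not shown, also held the letters but was under the level filter, and Ces1e and Ces1g were called lower without them.
Ces2a, chr8:104733753-104734002, + strand: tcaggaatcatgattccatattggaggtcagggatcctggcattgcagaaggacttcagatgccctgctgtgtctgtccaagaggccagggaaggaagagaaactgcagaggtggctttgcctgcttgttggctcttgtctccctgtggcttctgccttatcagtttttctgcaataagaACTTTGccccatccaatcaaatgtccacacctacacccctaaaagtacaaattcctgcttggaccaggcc
Ces2c, chr8:104846818-104847067, + strand: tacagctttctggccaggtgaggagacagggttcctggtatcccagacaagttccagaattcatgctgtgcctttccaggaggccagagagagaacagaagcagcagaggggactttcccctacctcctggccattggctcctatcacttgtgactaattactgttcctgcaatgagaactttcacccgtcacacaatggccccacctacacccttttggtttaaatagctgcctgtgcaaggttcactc
Ces2e, chr8:104926010-104926259, + strand: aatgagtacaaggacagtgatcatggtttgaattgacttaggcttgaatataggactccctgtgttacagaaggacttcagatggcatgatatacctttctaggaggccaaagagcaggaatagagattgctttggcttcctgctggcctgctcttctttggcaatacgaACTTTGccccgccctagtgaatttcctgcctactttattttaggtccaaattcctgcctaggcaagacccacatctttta
Ces2g, chr8:104961468-104961717, + strand: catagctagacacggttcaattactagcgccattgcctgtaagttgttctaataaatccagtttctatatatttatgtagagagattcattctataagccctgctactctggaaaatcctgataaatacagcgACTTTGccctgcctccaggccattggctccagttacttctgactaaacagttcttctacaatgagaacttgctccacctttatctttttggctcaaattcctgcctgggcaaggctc

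The RefSeq promoter table held windows for 7 of the 10 members: Ces1e, Ces1g, Ces2a, Ces2c, Ces2e, Ces2f and Ces2g. After global alignment the Ces2a and Ces2c windows shared 166 of 250 bases (66.4%), the highest value among the 21 pairs, and Ces2a and Ces2e shared 151 (60.4%). The Ces1e and Ces1g windows shared 129 (51.6%), close to the pairs that mix the subfamilies. The HNF4-type letters CAAAGT, searched on both strands like every other motif here, were found in Ces2a, Ces2e, Ces2f and Ces2g, each time as the reverse complement on the gene's strand. The match began 70 bases before the start in Ces2a, 80 in Ces2e, 92 in Ces2f and 117 in Ces2g. Read by eye, the Ces2g stretch most like the surroundings of the Ces2a and Ces2e matches lacks the full letters, as does that of Ces2c. The called Ces2g and the uncalled Ces2c are therefore alike at that spot. No match lay in the Ces2c, Ces1e or Ces1g window. Of all 32851 promoter windows of that length in the table, 12.6% held one. The nuclear receptor half-site AGGTCA was found in Ces2a alone of the 7, and in 14.0% of all windows. The PXR-type half-site AGTTCA was in none of the 7 and in 11.8% of all windows. Neither the HNF1-type sequence GTTAAT (6.43% of all windows) nor the E-box CACGTG (6.02%), which is its own reverse complement, was in any of the 7. The GATA sequence AGATAA lay in Ces1e, Ces1g and Ces2g (9.99% of all windows). The CDX sequence TTTATG lay in the same 3 windows (10.8% of all). The TATA box TATAAA lay in Ces1g (12.4%), only as its reverse complement TTTATA on the gene's strand, beginning 26 bases before the start. The CCAAT box lay in Ces1g, Ces2a, Ces2c and Ces2g (33.8%). No match in these 7 windows overlapped another. A match describes letters only, and whether a factor binds there was not measured.

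Dhx9, the targeted gene, lay below control in all 6 knockdown arrays. The control mean was 9.24 ± 0.072 on the log2 scale (SD, n = 3 arrays), the DHX9-1271 mean 8.22 ± 0.044 and the DHX9-837 mean 8.20 ± 0.017, so 49.6% and 48.8% of the control signal remained. By limma, Dhx9 did not pass the test between the hairpins (difference -0.021, 95% interval -0.14 to 0.093, adjusted p = 0.907). Array medians over tested genes lay between 7.06 and 7.14, and arrays have no read depth, so their number limits the precision. Over 17199 genes tested in both hairpins against control, 1410 were higher and 934 lower at an adjusted p under 0.05. The split was 1153 and 1245 after centring arrays at their medians and 1361 and 1213 with cyclic loess scaling. For DHX9-1271 alone the split was 493 and 275, or 401 and 365 with centring and 431 and 374 with cyclic loess scaling. For DHX9-837 alone it was 1512 and 1209, or 1325 and 1543 with centring and 1575 and 1462 with cyclic loess scaling.

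In both hairpins against control, 7 of the 9 tested members were called lower and 0 higher, where 13.6% of all genes tested were called, 5.43% lower and 8.2% higher. The same 7, Ces1d, Ces1e, Ces1g, Ces2a, Ces2b, Ces2e and Ces2g, had all 6 knockdown arrays below all 3 control arrays, which held for 6.8% of all genes tested. Ces1f and Ces2c were the members not called. Because these contrasts led to the choice of the family, nothing further is read from the counts. DHX9-1271 alone had 4 of 9 called lower (4.47% of all genes were called, 1.6% lower and 2.87% higher), namely Ces1d, Ces2a, Ces2b and Ces2e. DHX9-837 alone had 7 of 9 called lower (15.8% of all genes were called, 7.03% lower and 8.79% higher). The median log2 fold over the 9 tested members was -0.59 for both hairpins, -0.42 for DHX9-1271 and -0.77 for DHX9-837, beside 0.0013, 0.0061 and -0.0012 over all genes tested. These contrasts share the control arrays. Without control replicate 1, or without control replicate 3, the count in both hairpins was 4 (Ces1d, Ces2a, Ces2b and Ces2e), and Ces1e, Ces1g and Ces2g were no longer called.

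**Figure D1:**
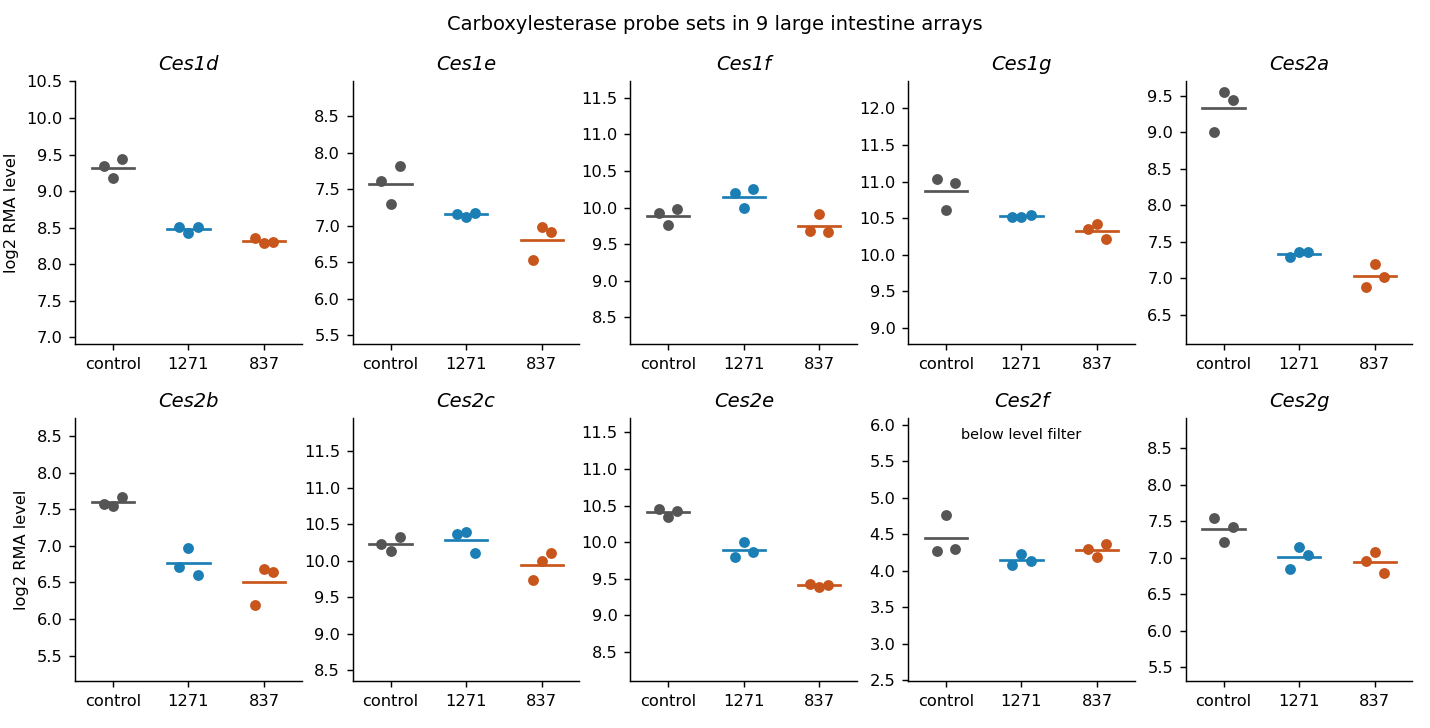
Log2 RMA level of each of the 10 carboxylesterase probe sets (y axis, every panel spanning the same range around the gene's own mean) in the control, DHX9-1271 and DHX9-837 groups (x axis), with 1 point per array and a bar at the group mean of 3 arrays. Ces2a shows the widest gap, from a control mean of 9.33 to 7.33 and 7.03, while Ces1f and Ces2c overlap control in at least 1 knockdown group.

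Among the Ces2 genes, Ces2a was furthest below control. It encodes a carboxylesterase of liver and intestine that hydrolyses lipid and drug esters. Its control arrays were at 9.01, 9.55 and 9.44 on the log2 scale. The DHX9-1271 arrays were at 7.29, 7.35 and 7.35, and the DHX9-837 arrays were at 6.89, 7.20 and 7.01. The groups did not overlap, and every DHX9-837 array lay below every DHX9-1271 array. The log2 fold against control was -1.999 (SE 0.13) with DHX9-1271 and -2.30 (SE 0.13) with DHX9-837, so 25.01% and 20.4% of the control signal were left. In both hairpins together 4 of the 17199 genes had a lower log2 fold than Ces2a.

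Ces2e encodes an enzyme known to hydrolyse neutral lipid esters. Control arrays were at 10.45, 10.35 and 10.43, DHX9-1271 arrays at 9.79, 9.995 and 9.87, and DHX9-837 arrays at 9.43, 9.38 and 9.42. The 3 groups formed separate steps, with control highest and DHX9-837 lowest. DHX9-1271 left 69.5% of the control signal (log2 fold -0.52, SE 0.059) and DHX9-837 left 50.0% (log2 fold -1.001, SE 0.059).

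Ces2b, which lies beside Ces2a in the cluster, was at 7.58, 7.54 and 7.67 in control. It was at 6.71, 6.97 and 6.61 in DHX9-1271 and at 6.19, 6.68 and 6.65 in DHX9-837. Both knockdown groups lay below control and overlapped each other. The log2 fold was -0.83 (SE 0.14) and -1.09 (SE 0.14), which left 56.2% and 47.0% of the signal. With DHX9-1271 the call of Ces2b was lost without DHX9-1271 replicate 1 and without replicate 3, so 3 members stayed called there.

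Ces2g was at 7.55, 7.21 and 7.43 in control, at 6.85, 7.14 and 7.04 in DHX9-1271 and at 6.96, 7.08 and 6.79 in DHX9-837. The knockdown groups overlapped, and the highest of their arrays lay close under the lowest control array. The log2 fold was -0.39 (SE 0.11) with DHX9-1271 and -0.45 (SE 0.11) with DHX9-837. Its call with DHX9-837 ended under 7 of 19 alternatives, among them leaving out control replicate 1 or 3 and DHX9-837 replicate 1 or 3.

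Ces2c, which lies between Ces2b and Ces2e in the cluster and whose enzyme hydrolyses acylglycerols, did not share that pattern. Control arrays were at 10.23, 10.14 and 10.33, DHX9-1271 arrays at 10.36, 10.39 and 10.112, and DHX9-837 arrays at 9.74, 10.001 and 10.106. The DHX9-1271 arrays overlapped control, and the DHX9-837 arrays lay below both groups, the highest of them only just. The log2 fold was 0.056 (SE 0.11) with DHX9-1271 and -0.28 (SE 0.11) with DHX9-837, or 104% and 82.2% of the control signal. Ces2f was under the level filter and was not tested. Its arrays were at 4.28, 4.76 and 4.30 in control, at 4.08, 4.23 and 4.14 in DHX9-1271 and at 4.30, 4.18 and 4.36 in DHX9-837, and DHX9-837 overlapped control.

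Among the Ces1 genes, Ces1d was furthest below control. It encodes triacylglycerol hydrolase, which mobilises stored triacylglycerol in liver and adipose tissue. Control arrays were at 9.34, 9.17 and 9.45, DHX9-1271 arrays at 8.50, 8.43 and 8.50, and DHX9-837 arrays at 8.36, 8.29 and 8.30. The 3 groups did not overlap. The log2 fold was -0.84 (SE 0.069) with DHX9-1271 and -1.003 (SE 0.069) with DHX9-837, so 55.8% and 49.9% of the signal were left. Ces1d had the same value in DHX9-1271 replicates 1 and 3, and Ces2a in DHX9-1271 replicates 2 and 3. A value repeated between arrays occurred in 45.2% of tested genes, and its effect on the SD was not tested.

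Ces1e encodes egasyn, which holds beta-glucuronidase in the endoplasmic reticulum. It was at 7.61, 7.29 and 7.82 in control, at 7.16, 7.13 and 7.17 in DHX9-1271 and at 6.53, 6.98 and 6.92 in DHX9-837. The groups were separate, and the control arrays were the most spread. The log2 fold was -0.42 (SE 0.15) and -0.77 (SE 0.15), which left 74.7% and 58.8% of the signal. Ces1g, whose enzyme limits the release of triacylglycerol-rich lipoproteins, was at 11.03, 10.61 and 10.98 in control, at 10.52, 10.51 and 10.54 in DHX9-1271 and at 10.36, 10.42 and 10.21 in DHX9-837. Control replicate 2 lay near the DHX9-1271 arrays, above the highest of them. The log2 fold of Ces1g was -0.35 (SE 0.11) and -0.54 (SE 0.11), which left 78.6% and 68.6%.

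Ces1f, a further lipid hydrolase gene, lay on opposite sides of its control mean in the 2 hairpin groups. Control arrays were at 9.93, 9.76 and 9.97, DHX9-1271 arrays at 10.20, 9.998 and 10.26, and DHX9-837 arrays at 9.68, 9.91 and 9.67. All DHX9-1271 arrays lay above control, and the DHX9-837 arrays overlapped control. The log2 fold was 0.26 (SE 0.095) with DHX9-1271 and -0.13 (SE 0.095) with DHX9-837, neither of them called.

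The subfamilies overlapped in how far their members lay from control. In both hairpins together 3 of 4 Ces1 members and 4 of 5 tested Ces2 members were called lower. Log2 folds ran from -0.92 (Ces1d) to 0.064 (Ces1f) in Ces1, with a median of -0.52. They ran from -2.15 (Ces2a) to -0.11 (Ces2c) in Ces2, with a median of -0.76. Each subfamily held 1 tested member that was not called. With DHX9-1271 alone the medians were -0.38 for Ces1 and -0.52 for Ces2, with 1 of 4 and 3 of 5 called lower. With DHX9-837 alone the medians were -0.65 and -1.001, with 3 of 4 and 4 of 5 called lower. No test of Ces1 against Ces2 was made, because the members were chosen with these values known.

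**Figure D2:**
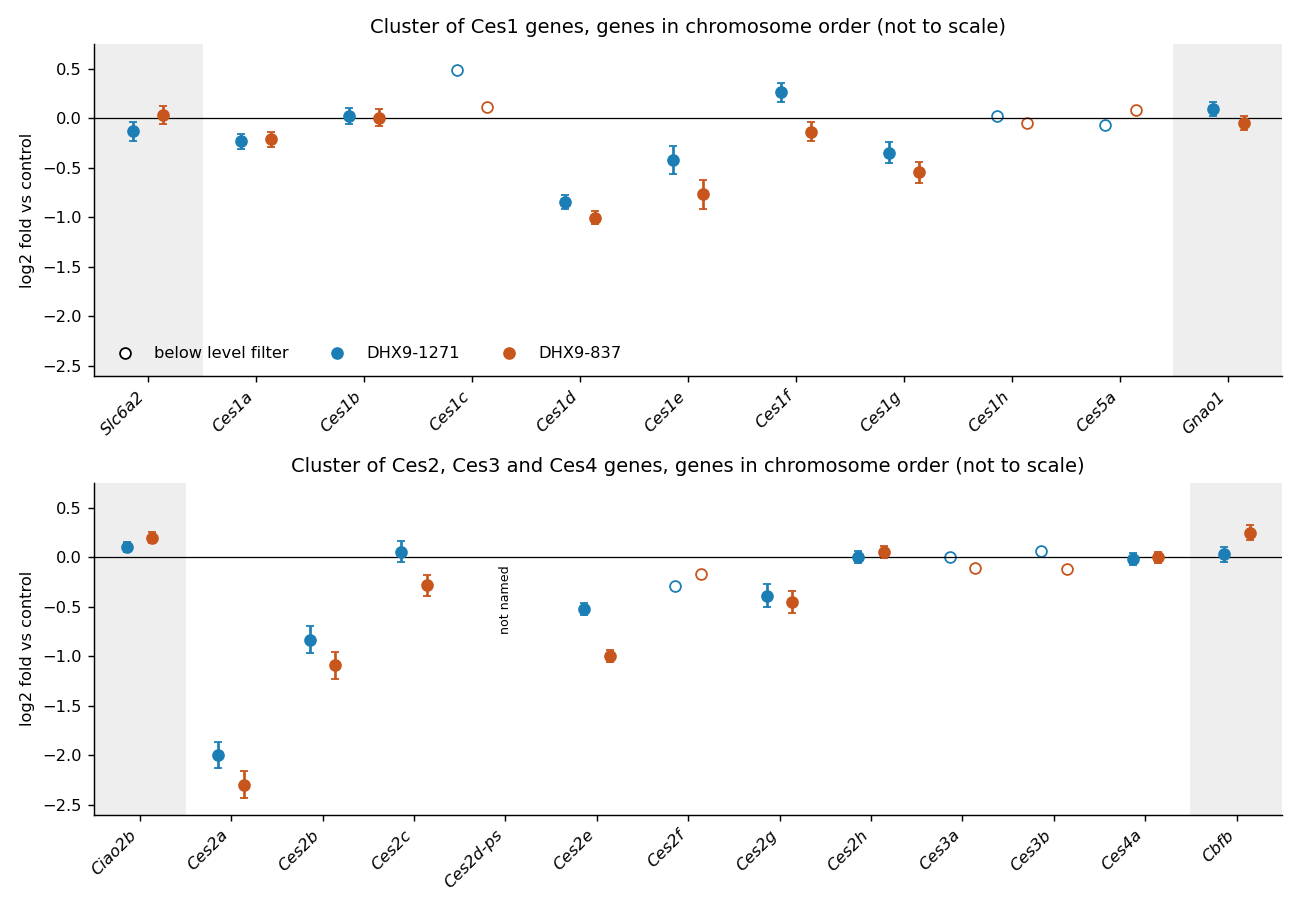
Log2 fold against control (y axis) with DHX9-1271 and DHX9-837 for the genes of both carboxylesterase clusters in chromosome order (x axis, not to scale), with the nearest flanking protein-coding gene on each side on grey. Bars are the SE from limma, and open circles mark genes under the level filter, for which the plain difference of group means is drawn. Ces1f and Ces2c, at 0.26 and 0.056 with DHX9-1271, stand between neighbours that lie below control.

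In each cluster the member not called lay between members called lower. In the Ces1 cluster the order is Ces1a, Ces1b, Ces1c, Ces1d, Ces1e, Ces1f, Ces1g, Ces1h and Ces5a. In the other it is Ces2a, Ces2b, Ces2c, the pseudogene Ces2d-ps, Ces2e, Ces2f, Ces2g, Ces2h, Ces3a, Ces3b and Ces4a. Of the 10 carboxylesterase genes outside the listed members 9 had a named probe set, all but Ces2d-ps, and 4 of them passed the level filter. None of these 4 was called by limma in any contrast (13.6% of all genes were called in both hairpins against control), and 1, Ces1a, had an unadjusted p under 0.05 in each contrast against control (0 between the hairpins). Ces1a had a log2 fold of -0.22 (95% interval -0.37 to -0.073, adjusted p = 0.0562), and all its knockdown arrays lay below control. In both hairpins against control Ces1a was called after centring arrays at their medians and without control replicate 1. Ces1b (0.014, 95% interval -0.15 to 0.17), Ces2h (0.027, 95% interval -0.088 to 0.14) and Ces4a (-0.010, 95% interval -0.12 to 0.10) were not called in the main fit or the alternatives. Ces1c, Ces1h, Ces3a, Ces3b and Ces5a were under the level filter, with mean log2 levels over the 9 arrays of 4.02, 5.01, 4.16, 2.72 and 4.80.

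Genes beside the clusters were compared in the same way. Beside the Ces1 cluster, Lpcat2, a phospholipid acyltransferase gene, rose by 0.28 (adjusted p = 0.0234) in both hairpins against control by limma. Capns2, Slc6a2, Gnao1 and Nudt21 were not called. Beside the Ces2 cluster, 0 of the 6 flanking genes Cdh16, Rrad, Ciao2b, Cbfb, D230025D16Rik and B3gnt9 were called in that contrast by limma, where 13.6% of all genes tested were called. The 6 log2 folds ran from -0.27 (Cdh16) to 0.15 (Ciao2b). Of those 6, Cdh16, Ciao2b and D230025D16Rik, that is 3, had an unadjusted p under 0.05 in that contrast. With DHX9-837 alone 1 of the 6 was called, where 15.8% of all genes tested were called. It was Ciao2b, higher by 0.20 (adjusted p = 0.0353 by limma). With DHX9-1271 alone 0 of the 6 were called, where 4.47% of all genes were called.

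The difference between the hairpin lines was tested directly, and it does not use the control arrays' levels. The hairpin arrays' values were known when the family was chosen, so its p-values are for members picked from these same data. Ces2e was the member that passed the test. It was lower with DHX9-837 than with DHX9-1271 by a log2 difference of -0.48 (95% interval -0.61 to -0.34, adjusted p = 0.0108 by limma), in 3 of 3 arrays. Thus 1 of 9 tested members was called, where 1.91% of all genes tested were called between the hairpins in either direction, 1.21% lower and 0.698% higher with DHX9-837. The call was lost without DHX9-1271 replicate 3 (adjusted p = 0.0573), and over the alternatives the adjusted p ran from 0.0017 to 0.0573. The other 8 members were not called, and their differences were all below 0, with a median over the 9 members of -0.30 beside -0.0041 over all genes tested. These differences rest on the same arrays and on members chosen from them, so they do not count as separate observations.

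Ces1f had the largest difference of those not called. All its DHX9-837 arrays lay below all its DHX9-1271 arrays, by -0.40 (95% interval -0.61 to -0.18, adjusted p = 0.0769), and it was called with trend and robust moderation (adjusted p = 0.0362) and with array weights (adjusted p = 0.0379). Ces2c differed by -0.34 (95% interval -0.59 to -0.094, adjusted p = 0.176) and Ces1e by -0.34 (95% interval -0.68 to -0.014, adjusted p = 0.321). Ces2a differed by -0.30 (95% interval -0.60 to 0.0057, adjusted p = 0.357) and Ces2b by -0.26 (95% interval -0.57 to 0.052, adjusted p = 0.450). Ces1g (-0.19, 95% interval -0.43 to 0.045), Ces1d (-0.16, 95% interval -0.32 to -0.0049) and Ces2g (-0.067, 95% interval -0.32 to 0.19) had the smallest differences. In 7 of the 9 members every DHX9-837 array lay below every DHX9-1271 array, the exceptions being Ces2b and Ces2g, and this held for 12.6% of all genes tested.

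**Figure D3:**
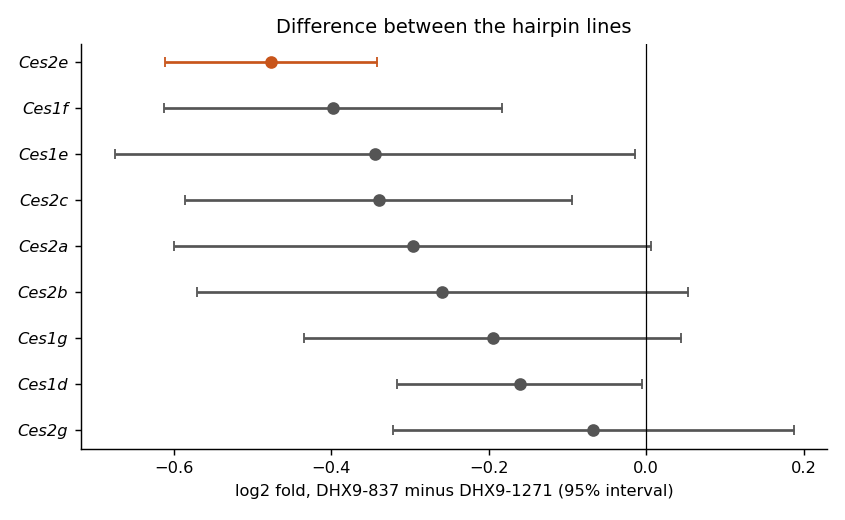
Log2 fold of DHX9-837 minus DHX9-1271 (x axis) for the 9 tested carboxylesterase members (y axis), with 95% intervals from limma that are not corrected for the number of genes. Ces2e, at -0.48, is the member with an adjusted p under 0.05 and is drawn in orange. All 9 points lie below 0 and rest on the same arrays.

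Genes that act beside carboxylesterases on lipid esters changed in both directions. Of 24 tested genes of lipid ester hydrolysis and triacylglycerol synthesis, 3 rose and 7 fell in both hairpins against control, with a median log2 fold of 0.0047. Over all genes tested 8.2% were called higher and 5.43% lower. Cideb, which takes part in lipoprotein lipidation, fell by 0.39 (SE 0.042), and Agpat2 and Dgat2, which encode acyltransferases of triacylglycerol synthesis, fell by 0.40 (SE 0.048) and 0.47 (SE 0.076). Lpl, which encodes lipoprotein lipase, rose by 0.58 (SE 0.081). The count of called genes in that list was 5 without control replicate 3 and 6 without control replicate 1. Of 24 tested genes listed as other esterases and serine hydrolases, 1 rose and 3 fell (median -0.030), where 13.6% of all genes tested were called. Abhd6, a monoacylglycerol lipase gene, rose by 0.21, whereas the paraoxonase gene Pon3 (-0.22), Abhd2 (-0.22) and Pcyox1 (-0.28) fell. Pcyox1 was in the list but encodes a prenylcysteine oxidase, which is not an esterase. Without control replicate 1 the called ones were 2, Abhd6 and Pcyox1.

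Of 23 tested genes of xenobiotic and nuclear receptors and intestinal regulators, 0 rose and 4 fell in the same contrast, with a median of -0.030. Over all genes tested 8.2% were called higher and 5.43% lower. Ppara, the fatty acid receptor gene, fell by 0.37 (SE 0.059), Nr1i3, the gene of the xenobiotic receptor CAR, by 0.26 (SE 0.065) and Ppard by 0.21 (SE 0.042). Without control replicate 1 the count was 2, and Ppara was still called. Hnf4a, named here because of the sequence searched in the promoters, was not called, at 0.079 (SE 0.046) with an adjusted p = 0.294 by limma, and neither was Nr1i2, the gene of the xenobiotic receptor PXR, at -0.14 (SE 0.046) with an adjusted p = 0.0803.

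The 5 genes with levels most like those of Ces2a over the 9 arrays were Dgka (Pearson r = 0.992), Ndufb2 (0.988), Cideb (0.983), Dhx9 itself (0.982) and Pdzk1ip1 (0.981). The 3 most opposed were Zfr (-0.985), Septin2 (-0.981) and Stub1 (-0.977). For Ces1g, the Ces1 member whose probe set had the highest mean, Pla2g10 (0.982) and Setd7 (0.979) were among the most like. These values describe 9 arrays in 3 groups and follow the step between control and knockdown arrays.

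Markers of absorptive colonocytes, the cells that line the large intestine, were compared in the same arrays. All 20 listed markers were above the level filter. In both hairpins against control 9 fell, 1 rose and 10 were not called, where 5.43% of all genes tested were called lower and 8.2% higher. Slc37a2 fell by 0.85 (SE 0.069), Slc20a1 by 0.58 (SE 0.070), Slc26a3, the chloride-bicarbonate exchanger gene, by 0.45 (SE 0.047) and Mall by 0.42 (SE 0.056). The summed linear signal of the 20 was 58312 to 58682 in control, 52905 to 54009 in DHX9-1271 and 49261 to 50955 in DHX9-837, in separate steps. Between the hairpins 4 of the 20 were lower with DHX9-837 and 1 higher. Over all genes tested 1.21% were called lower and 0.698% higher there. In bulk tissue, fewer cells of a type and less RNA per cell cannot be told apart, and the part of these markers in the members' levels was not tested. General epithelial markers, 15 of 15 tested, had 3 up and 1 down. Their sum was 27018 to 27777 in control, 27777 to 28752 in DHX9-1271 and 28356 to 29990 in DHX9-837.

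**Figure D4:**
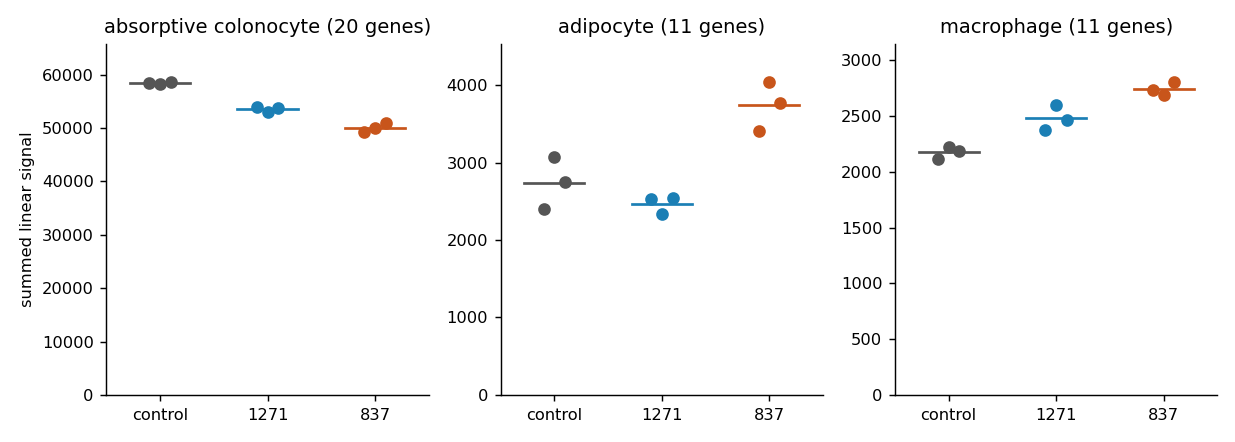
Summed linear signal (y axis, starting at 0) of absorptive colonocyte, adipocyte and macrophage marker lists in each array, by group (x axis), with a bar at the mean of 3 arrays. Colonocyte sums step down from 58312 to 58682 in control to 49261 to 50955 in DHX9-837, adipocyte sums are highest in DHX9-837 and macrophage sums are lowest in control.

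Adipose tissue and macrophages are other sources of carboxylesterase RNA in a gut wall sample. Of 11 adipocyte markers 9 were tested and Adipoq and Lep were below the level filter. The summed signal of all 11 was 2401 to 3078 in control, 2331 to 2546 in DHX9-1271 and 3405 to 4047 in DHX9-837. With DHX9-1271 against control 0 of the 9 rose and 1 fell, where 2.87% of all genes were called higher and 1.6% lower. With DHX9-837 against control 4 rose and 0 fell, where 8.79% were called higher and 7.03% lower. Between the hairpins 5 of the 9 were higher with DHX9-837 and 0 lower, where 0.698% of all genes tested were called higher. Ces1d and Ces1f, both known from adipose tissue, had differences of -0.16 and -0.40, neither of them called. In both hairpins against control 8.2% of all genes tested were called higher and 5.43% lower. Of 12 macrophage markers 11 had a named probe set and were tested, and in that contrast 5 rose, among them Csf1r (0.48) and C1qc (0.50), and 1, Cd14, fell by 0.43. Their sum was 2114 to 2223 in control, 2377 to 2602 in DHX9-1271 and 2692 to 2808 in DHX9-837. Small intestine markers, where Ces2 genes are also known to be expressed, had 0 up and 2 down of 18 (Fabp2 and Alpi), with sums that overlapped between all groups (8199 to 25485 over the knockdown arrays and 9893 to 17122 in control). Hepatocyte markers had 7 of 12 tested, with Alb, Fga, Fgb and Fgg below the filter, and 2, Ttr and Trf, rose in both hairpins against control. The sum over the 11 with a named probe set, those below the filter included, was 1617 to 1707 in control and 1821 to 1830 in DHX9-1271. It was 1943 to 2382 in DHX9-837, and the groups did not overlap. Pancreas markers had 5 of 10 tested and smooth muscle markers 10 of 10, with 0 called by limma in either list. In both hairpins against control an unadjusted p under 0.05 by limma held for 0 pancreas markers and for 1 smooth muscle marker, Smtn. It held for 4 smooth muscle markers with DHX9-837 alone. Between the hairpins it held for 5, and the median log2 fold of that list was -0.21 there. The part of these cells in the members' levels was not tested.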

How the data were processed

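The labels' protocols name the Affymetrix Mouse Gene 2.0 ST array, run on 9 large intestine samples. The authors deposited log2 levels from RMA. The submitters' processing notes name oligo 1.30.0 and R 3.1.1. RMA as a method scales arrays by quantiles, so a shift of most genes one way would not be seen. The sources used here do not give the genome build or how probe sets were defined.

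Probe sets were named through the platform table (24015 of 24973) and, where it listed none, through the RefSeq gene number (559). The 2 sources gave the same symbol for all 23922 numbers found in both. For each of 24570 symbols the probe set of highest mean level was used, and genes under the 30th percentile of mean level (5.29) were left out, which left 17199. All 9 arrays entered 1 group-means fit in limma 3.58.1 (R 4.3.3; 6 residual and 2.82 prior degrees of freedom). Two-sided p-values were adjusted over all genes tested (Benjamini-Hochberg), with calls at 0.05. The method was tested on simulated data.

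Members, gene lists and motifs were chosen with earlier results of these data known. All members, all other carboxylesterases, up to 4 list genes of smallest p, 3 flanking genes a side and the genes most like Ces2a and Ces1g were named, except for a few that are not reported here. Promoters were aligned with Biopython 1.88, and figures drawn with matplotlib 3.10.9. Alternatives covered level filter, probe sets per gene, scaling, moderation, array weights, arrays compared, replicate block and leaving out each array. Not all could move every result. Taking the mean of probe sets left the count of called genes as in the main fit in every contrast. Fitting only the arrays compared is the main fit itself for both hairpins against control.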

Additional observations from a re-analysis of the deposited data

Results flagged for a closer look

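Ces2e differed between the hairpin lines by the test of the difference itself. Its log2 fold of DHX9-837 against DHX9-1271 was -0.48 (adjusted p = 0.0108 by limma), with 3 of 3 DHX9-837 arrays below all DHX9-1271 arrays. Without DHX9-1271 replicate 3 the adjusted p was 0.0573. The family was chosen with the values of these arrays known.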

How the results depend on the processing

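Across 19 alternatives, the last of them (platform table names only, without Ces2c) added after the data were seen, Dhx9 stayed called and its log2 fold in both hairpins ran from -1.05 to -0.98 when an array was left out. Members called in both hairpins against control numbered 4 to 7 when 1 array was left out, in DHX9-1271 3 to 5, in DHX9-837 6 to 7, and between the hairpins 0 to 1. Between the hairpins 2 were called with trend and robust moderation and 2 with array weights, against 1. Other carboxylesterases called numbered 0 to 1 in both hairpins and in DHX9-837 when an array was left out, and with arrays centred on their median 1 in both hairpins and 0 in DHX9-837. Called genes numbered 5 to 12 in the lipid ester hydrolysis list, 2 to 5 in the other esterase list, Pcyox1 included, and 2 to 5 in the receptor list when an array was left out. The difference of Ces2g between the hairpins ran from -0.15 to 0.011 when an array was left out (0.011 without DHX9-837 replicate 3, adjusted p = 0.985), never called. Over all genes, 2344 were called in both hairpins (1422 to 2779 over the alternatives), 768 in DHX9-1271 (148 to 1112), 2721 in DHX9-837 (1738 to 3117) and 328 between the hairpins (32 to 752). The cause of these changes was not tested.

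Same-numbered arrays did not deviate together: 2 of 9 such pairs correlated over 0.1, with r from -0.38 to 0.27, so the numbers were not taken as pairs. With the replicate block 6 members were called in both hairpins, 4 in DHX9-1271, 6 in DHX9-837 and 1 between the hairpins.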
